A study of Mus musculus with 12 samples.

Results

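Expression of 10 regulators of tumor necrosis factor (TNF) and NF-kappaB signaling was examined in preosteoclasts with and without the histone demethylase LSD1. The group was defined by gene name and comprises the cytokine gene Tnf, the receptor genes Tnfrsf1a and Tnfrsf1b, the NF-kappaB subunit genes Nfkb1, Nfkb2, Rel, Rela and Relb, and the inhibitor genes Nfkbia and Tnfaip3. These are 10 of the 57010 genes listed in the count table, and 10 of 10 were among the 15425 genes with enough reads to be tested. Bone marrow cells of female mice, 2 months old according to the labels, were kept for 2 days in the cytokines M-CSF and RANKL before polyA RNA was sequenced. In LSD1cKO mice a floxed LSD1 gene (Kdm1a) is deleted by a Cre recombinase that the Lyz2 promoter (LysM-Cre) drives in myeloid cells, and LSD1WT mice are their controls. Ligated mice had carried ligatures for 7 days around the second molars of the upper jaw (maxilla), left and right. The marrow came from the mandible of such mice, from their femur, or from the femur of unligated mice. This gave 6 conditions with 2 libraries each. The 12 libraries came from 9 mice, and both LSD1cKO mice and 1 LSD1WT mouse with a mandible library also gave a ligated femur library.

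TNF is a cytokine that activates the receptors TNFR1 (Tnfrsf1a) and TNFR2 (Tnfrsf1b), and both receptors, like the RANK receptor for RANKL, release NF-kappaB transcription factors from their inhibitors. In the canonical pathway IkappaB-alpha (Nfkbia) is degraded and dimers of p50 (Nfkb1), RelA and c-Rel enter the nucleus, whereas in the alternative pathway p100 (Nfkb2) is processed to p52, which pairs with RelB. Nfkbia, Tnfaip3 (A20) and Nfkb2 are among the known transcriptional targets of NF-kappaB. They are named as examples, and other genes of the group may be targets as well. Their levels therefore do not stand for those of all target genes. Both pathways take part in osteoclast formation.

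Kdm1a, as a check of the labels, was at 61.2 to 71.3 CPM, the standard read count scaled to library size (here with TMM factors), in the 6 LSD1WT libraries and at 15.6 to 24.3 CPM in the 6 LSD1cKO libraries. Total counts per library were 21375805 to 32526751. The femur LSD1WT replicate 2 libraries, ligated and unligated, stood apart from the other 10. The summed level of 15 osteoclast genes was 934 and 892 CPM in them and 13621 to 44208 CPM in the other libraries, and 10 and 13 of the 15 genes were over 1 CPM, against 15 elsewhere. The sum of 10 macrophage genes was 44942 and 22107 CPM in them and 2981 to 10595 CPM elsewhere. Lyz2 weighs most in this sum, with a highest value of 35330 CPM against 3684 CPM for the next gene, Csf1r. The Lyz2 promoter also drives Cre in LSD1cKO mice, and whether this alters the Lyz2 level was not tested. Fewer osteoclasts and less RNA per osteoclast cannot be told apart in bulk RNA. Values are given below with and without the femur LSD1WT replicate 2 pair. The mandible LSD1WT libraries were very close to each other, with 0.117% of genes differing more than 2-fold against 0.506% to 31.2% in the other pairs, and the title of replicate 3 says mandible while its library name says femur.

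Upstream sequences were read to see which regulators carry NF-kappaB motif letters near their start. Several regulators had been seen to move together between libraries, and whether the letters have a part in this was not tested. The RefSeq promoter table (build GRCm38.p6) matched 8 of the 10 genes, with no entry for Nfkb1 and Relb. It covers 250 bases before and 50 bases after each start, and these windows were searched on both strands for the 10-base kappaB consensus. The letters were present in 4 of the 8 genes (Nfkb2, Rel, Nfkbia and Tnfaip3), against 5.14% of all 27025 genes and 4.51% of all 32851 promoters in the table. The 250 bases before the start of these 4 genes are shown because their matches lie there, with capitals for every base inside a match, and those of Tnf and Tnfrsf1b are shown as regulators without a match. A match describes letters only, and its use by a factor was not measured.
Nfkbia (chr12:55492648-55492897, minus strand): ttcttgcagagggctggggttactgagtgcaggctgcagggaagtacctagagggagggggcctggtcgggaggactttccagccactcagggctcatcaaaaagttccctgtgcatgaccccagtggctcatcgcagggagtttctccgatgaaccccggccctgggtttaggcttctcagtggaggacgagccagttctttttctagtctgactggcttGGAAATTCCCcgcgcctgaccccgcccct
Tnfaip3 (chr10:19015411-19015660, minus strand): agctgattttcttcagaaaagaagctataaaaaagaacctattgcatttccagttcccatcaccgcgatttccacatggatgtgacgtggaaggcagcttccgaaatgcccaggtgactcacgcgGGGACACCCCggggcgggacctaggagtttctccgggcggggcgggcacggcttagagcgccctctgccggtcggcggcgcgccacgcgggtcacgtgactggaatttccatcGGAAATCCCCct
Nfkb2 (chr19:46304487-46304736, plus strand): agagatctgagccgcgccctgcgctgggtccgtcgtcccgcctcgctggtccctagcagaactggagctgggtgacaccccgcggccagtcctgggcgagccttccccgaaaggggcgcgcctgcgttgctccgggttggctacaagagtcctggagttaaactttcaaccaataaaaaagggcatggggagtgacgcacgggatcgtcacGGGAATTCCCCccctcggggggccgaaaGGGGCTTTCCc
Rel (chr11:23770970-23771219, minus strand): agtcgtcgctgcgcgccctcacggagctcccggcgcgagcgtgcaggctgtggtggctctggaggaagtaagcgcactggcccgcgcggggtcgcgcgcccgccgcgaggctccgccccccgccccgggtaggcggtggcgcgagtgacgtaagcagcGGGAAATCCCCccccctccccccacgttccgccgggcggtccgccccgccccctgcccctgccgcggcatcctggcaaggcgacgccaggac
Tnf (chr17:35202008-35202257, minus strand): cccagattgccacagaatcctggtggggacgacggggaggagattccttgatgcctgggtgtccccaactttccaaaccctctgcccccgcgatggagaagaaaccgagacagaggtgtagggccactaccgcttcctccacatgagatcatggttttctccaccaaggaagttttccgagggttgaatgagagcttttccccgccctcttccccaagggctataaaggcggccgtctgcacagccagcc
Tnfrsf1b (chr4:145246871-145247120, minus strand): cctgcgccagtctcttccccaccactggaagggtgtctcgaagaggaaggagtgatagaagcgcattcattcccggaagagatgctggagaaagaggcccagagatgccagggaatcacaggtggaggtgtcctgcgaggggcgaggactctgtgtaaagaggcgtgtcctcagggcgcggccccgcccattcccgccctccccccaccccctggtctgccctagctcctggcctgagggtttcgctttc

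In the Nfkbia window the match starts 29 bases before the start and reads GGGAATTTCC on the opposite strand. Tnfaip3 has 1 match at 125 bases before the start (GGGACACCCC) and 1 at 12 bases before it on the opposite strand (GGGGATTTCC). A second Tnfaip3 promoter in the table has none. The Nfkb2 promoter shown has matches at 39 and 11 bases before the start (GGGAATTCCC and GGGGCTTTCC), and a second Nfkb2 promoter has GGGACATTCC at 236 bases before and GGGACTTTCC at 11 bases after its start. The third Nfkb2 promoter of the table overlaps the second. In Rel the match reads GGGAAATCCC at 92 bases before the start. Matches that overlap one named here on the other strand, in Nfkb2 and Rel, are not listed again. No match was found in the windows of Tnf, Tnfrsf1a, Tnfrsf1b and Rela, which says only that these letters are absent there.

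Per kilobase of exon, Nfkbia had the highest level of the 10 genes, at 170.4 ± 63.5 CPM per kb (SD, n = 12 libraries). It was followed by Tnfrsf1a at 52.9 ± 19.3, Nfkb2 at 45.0 ± 16.7 and Tnfrsf1b at 43.1 ± 27.7 CPM per kb, which lay within 1 SD of each other. Rela was at 24.3 ± 4.53 CPM per kb. Relb (16.1 ± 6.14 CPM per kb), Tnfaip3 (14.8 ± 6.26), Rel (13.9 ± 2.51) and Nfkb1 (13.5 ± 1.64) did not differ beyond their SD, which spans the 6 conditions. The order depends on the length used, which merges the exons of all annotated transcripts and was 12061 bases for Nfkb1 and 7226 for Tnfaip3. Tnf was lowest, at 6.12 ± 2.98 CPM per kb. The genes differed in how far they varied over the 12 libraries. Between the highest and the lowest library CPM differed 8.86-fold for Tnfaip3, 6.73-fold for Nfkbia, 6.52-fold for Tnfrsf1b, 5.84-fold for Nfkb2 and 5.35-fold for Relb, but 1.46-fold for Nfkb1, 1.71-fold for Rela and 1.80-fold for Rel. Tnf differed 3.74-fold and Tnfrsf1a 2.79-fold. This order rests in part on the femur LSD1WT replicate 2 pair. In the other 10 libraries Tnfaip3 ran from 96.3 to 157 CPM, Nfkbia from 249 to 398, Nfkb2 from 172 to 329 and Relb from 47.5 to 98.9. Rela ran there from 56.8 to 92.5 CPM, Rel from 76.1 to 124 and Nfkb1 from 128 to 187. Tnfrsf1b (61.9 to 256 CPM), Tnf (4.85 to 15.9 CPM) and Tnfrsf1a (83.0 to 173 CPM) also varied there.

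**Figure D1:**
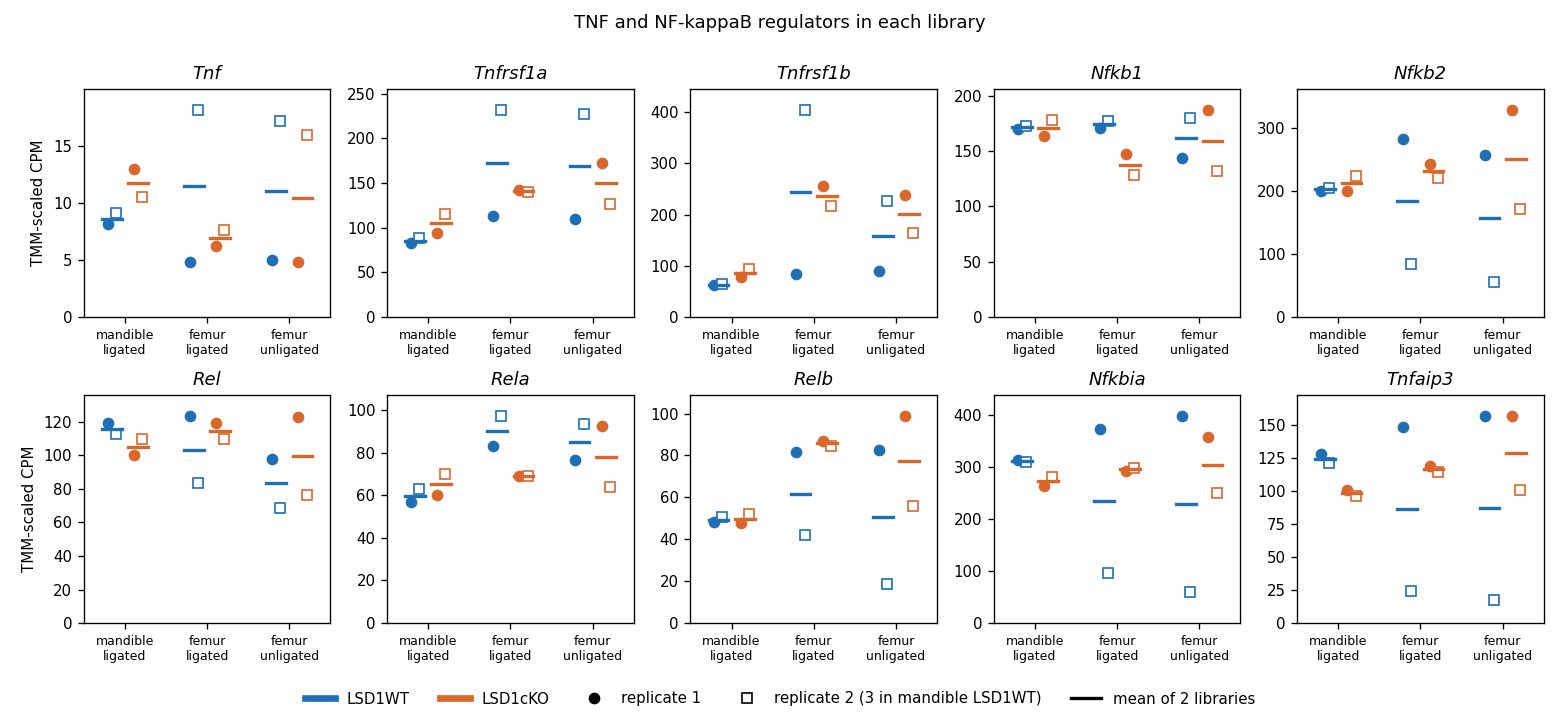
TMM-scaled CPM (linear axes from 0) of each of the 10 regulators in the 12 libraries, with LSD1WT in blue and LSD1cKO in orange; circles are replicate 1, squares replicate 2 (replicate 3 in mandible LSD1WT), and lines the mean of 2 libraries. In the femur the LSD1WT squares lie far from the LSD1WT circles for Tnfaip3, Nfkbia, Nfkb2, Relb, Tnf and both receptors, while the Nfkb1 values stay between 128 and 187 CPM.

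Tnf (ENSMUSG00000024401), the ligand, measured 8.16 and 9.06 CPM in the LSD1WT mandible and 12.9 and 10.5 CPM in the LSD1cKO mandible. Ligated femur values were 4.85 and 18.1 CPM (LSD1WT) and 6.22 and 7.58 CPM (LSD1cKO). Unligated femur values were 4.96 and 17.1 CPM (LSD1WT) and 4.85 and 15.9 CPM (LSD1cKO). Both mandible LSD1cKO libraries were above both LSD1WT libraries, whereas in the ligated femur the LSD1cKO libraries lay between the LSD1WT libraries and in the unligated femur each genotype had 1 low and 1 high library. The highest values were those of the femur LSD1WT replicate 2 pair.

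Tnfrsf1a (ENSMUSG00000030341) encodes TNFR1, the receptor with a death domain. It measured 83 and 88 CPM in the LSD1WT mandible and 94.4 and 115 CPM in the LSD1cKO mandible. The ligated femur had 114 and 232 CPM in LSD1WT and 142 and 139.6 CPM in LSD1cKO. The unligated femur had 110.1 and 228 CPM in LSD1WT and 173 and 127 CPM in LSD1cKO. Femur LSD1cKO libraries thus lay between LSD1WT replicate 1, which was lower, and LSD1WT replicate 2, which was the highest of each culture.

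Tnfrsf1b (ENSMUSG00000028599) encodes TNFR2, which has no death domain. It measured 61.9 and 64.8 CPM in the LSD1WT mandible and 77.7 and 92.9 CPM in the LSD1cKO mandible. Ligated femur values were 84.1 and 404 CPM (LSD1WT) and 256 and 217 CPM (LSD1cKO). Unligated femur values were 89.6 and 226 CPM (LSD1WT) and 239 and 163 CPM (LSD1cKO). In each femur culture both LSD1cKO libraries were above LSD1WT replicate 1, and LSD1WT replicate 2 was above both of them in the ligated femur and between them in the unligated femur. Within each genotype the mandible values were below the ligated femur values without overlap.

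The canonical subunit genes were the steadiest of the group over the 12 libraries. Nfkb1 (ENSMUSG00000028163), the p105 and p50 gene, was at 170.2 and 172 CPM in mandible LSD1WT, 163 and 178 CPM in mandible LSD1cKO, 171 and 177 CPM in ligated femur LSD1WT, 147 and 128 CPM in ligated femur LSD1cKO, 144 and 180.0 CPM in unligated femur LSD1WT, and 187 and 132 CPM in unligated femur LSD1cKO. Rela (ENSMUSG00000024927), which encodes the p65 transactivating subunit, ran from 56.8 CPM in a mandible LSD1WT library to 97.4 CPM in ligated femur LSD1WT replicate 2. Rel (ENSMUSG00000020275), the c-Rel gene, ran from 68.5 CPM in unligated femur LSD1WT replicate 2 to 124 CPM in ligated femur LSD1WT replicate 1. In the ligated femur both LSD1cKO libraries were below both LSD1WT libraries for Nfkb1 and for Rela (69.2 and 69.3 CPM against 83.1 and 97.4 CPM). In the mandible the LSD1cKO libraries were lower without overlap for Rel, at 100.5 and 109.6 CPM against 119 and 113 CPM.

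The genes of the alternative pathway varied more. Nfkb2 (ENSMUSG00000025225), the p100 and p52 gene, measured 201 and 206 CPM in the LSD1WT mandible and 200.4 and 224 CPM in the LSD1cKO mandible. It was at 284 and 83.4 CPM in ligated femur LSD1WT, 244 and 220.2 CPM in ligated femur LSD1cKO, 257 and 56.3 CPM in unligated femur LSD1WT, and 329 and 172 CPM in unligated femur LSD1cKO. The lowest values were those of femur LSD1WT replicate 2. Exons of Nfkb2 share 299 bases (6.52%) with Psd and 531 bases (11.6%) with AC114539.1 on the opposite strand, so part of its count is uncertain if reads were counted without strand. Relb (ENSMUSG00000002983), the partner of p52, was at 48.1 to 52.1 CPM over the 4 mandible libraries, with overlap between the genotypes. Ligated femur values of Relb were 81.4 and 41.8 CPM (LSD1WT) and 86.9 and 84.7 CPM (LSD1cKO). The unligated femur had 82.4 and 18.5 CPM (LSD1WT) and 98.9 and 55.9 CPM (LSD1cKO). In the ligated femur both LSD1cKO libraries were higher, although LSD1WT replicate 1 was only just below them.

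Over the 12 libraries the inhibitor genes had the widest range, set by the low values of femur LSD1WT replicate 2. In the other 10 libraries Nfkbia ran only from 249 to 398 CPM and Tnfaip3 from 96.3 to 157 CPM. Nfkbia (ENSMUSG00000021025), which holds NF-kappaB in the cytoplasm, measured 314 and 309 CPM in the LSD1WT mandible and 264 and 281 CPM in the LSD1cKO mandible. Ligated femur values were 374 and 95.3 CPM (LSD1WT) and 292 and 299 CPM (LSD1cKO). Unligated femur values were 398 and 59.2 CPM (LSD1WT) and 357 and 249 CPM (LSD1cKO). LSD1cKO was lower in the mandible without overlap, and in each femur culture its libraries lay between the LSD1WT libraries. Tnfaip3 (ENSMUSG00000019850), the ubiquitin-editing enzyme that ends TNF signaling, measured 128 and 122 CPM in the LSD1WT mandible and 101 and 96.3 CPM in the LSD1cKO mandible. Ligated femur values were 149 and 24.4 CPM (LSD1WT) and 119 and 114 CPM (LSD1cKO). Unligated femur values were 157 and 17.7 CPM (LSD1WT) and 157 and 101 CPM (LSD1cKO). As for Nfkbia, the mandible LSD1cKO libraries were the lower ones without overlap, and in the femur LSD1WT replicate 2 was far below every other library.

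To determine whether loss of LSD1 changed these genes, LSD1cKO was compared with LSD1WT in each culture and over the 3 cultures together. In each of these 4 comparisons 0 of the 10 genes passed an adjusted p of 0.05, and 0 passed an unadjusted p of 0.05, in the quasi-likelihood test of edgeR with Benjamini-Hochberg adjustment over 15425 genes. Of all genes tested, 0% were called in the mandible, 0.00648% (Kdm1a itself) in the ligated femur, 0% in the unligated femur and 3.53% over the 3 cultures. At an unadjusted p under 0.05 the shares of all genes were 4.82%, 6.88%, 4.95% and 16.1%. In the single cultures the p values rest on the spread between the 2 libraries of each condition, estimated over all 12 libraries. Over the 3 cultures the spread also holds differences of the genotype effect between cultures. There, 3 mice gave libraries of both sites, which were treated as independent.

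Over the 3 cultures (n = 6 libraries per genotype) the log2 fold changes of LSD1cKO over LSD1WT ran from -0.13 (Rela) to 0.37 (Relb). For the ligand and receptors they were -0.12 (standard error 0.43) for Tnf, -0.06 (0.22) for Tnfrsf1a and 0.24 (0.34) for Tnfrsf1b. For the subunits they were -0.12 (0.12) for Nfkb1, -0.13 (0.13) for Rela, 0.09 (0.16) for Rel, 0.36 (0.38) for Nfkb2 and 0.37 (0.32) for Relb. For the inhibitors they were 0.18 (0.43) for Nfkbia and 0.22 (0.51) for Tnfaip3. Adjusted p values ran from 0.648 to 0.939 in edgeR. The median over the 10 genes was 0.13, and over all genes tested it was -0.06. Of the 10 genes, 0 separated the 6 LSD1cKO from the 6 LSD1WT libraries, against 2.78% of all genes (1.98% higher and 0.797% lower).

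Without the femur LSD1WT replicate 2 pair, in a fit of the other 10 libraries, both receptor genes were called and the other 8 were not, beside 14.4% of all genes called higher and 9.75% called lower. The log2 fold change of Tnfrsf1b was then 0.97 (standard error 0.20), with an edgeR adjusted p of 0.00586. Tnfrsf1a had 0.38 (standard error 0.11) and an edgeR adjusted p of 0.0264. Tnf had 0.67 (standard error 0.29) with an edgeR adjusted p of 0.116. Nfkbia had -0.25 (standard error 0.11) and Tnfaip3 -0.29 (standard error 0.12), with edgeR adjusted p values of 0.134 and 0.104. The 5 subunit genes had log2 fold changes from -0.04 (Rel) to 0.04 (Relb). The values of Tnf, Tnfrsf1a, Nfkb2, Rel, Rela, Nfkbia and Tnfaip3 had the opposite sign in the fit of 12 libraries, so their direction over the 3 cultures turned with this pair. The fit of 10 libraries holds a single LSD1WT library in each femur culture. That of the ligated femur shares its mouse with a mandible library. The only LSD1WT pair left is that of the mandible, whose libraries were very close to each other. The calls of both receptor genes carry this limit.

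**Figure D2:**
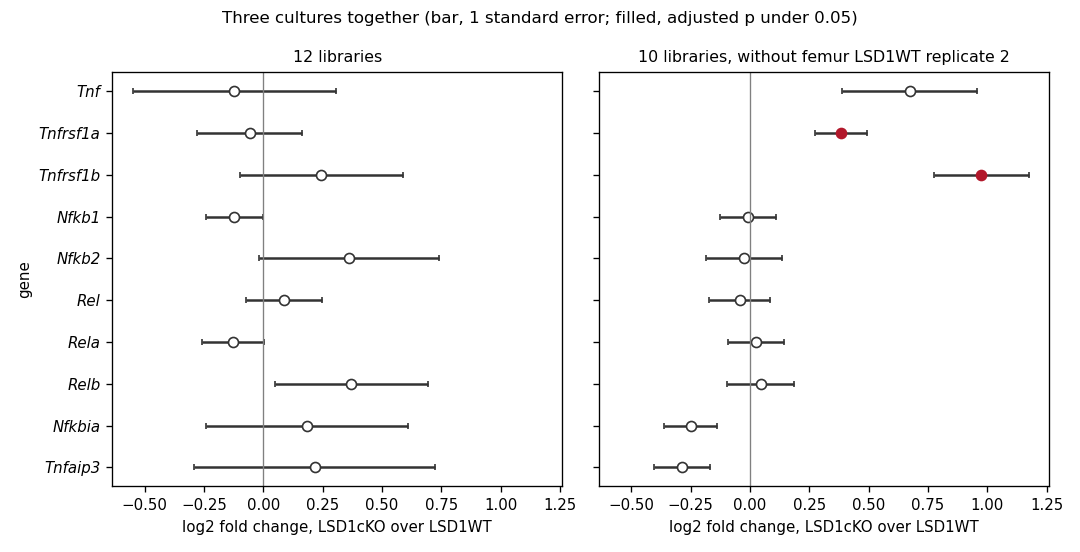
Log2 fold change of LSD1cKO over LSD1WT over the 3 cultures for each of the 10 regulators, in the fit of 12 libraries (left) and in the fit without both femur LSD1WT replicate 2 libraries (right). Bars are 1 standard error, and filled points have an adjusted p under 0.05 (edgeR), which is the case for Tnfrsf1a and Tnfrsf1b on the right and for none on the left.

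In the mandible, where no library of that pair takes part, 6 of the 10 genes did not overlap between the genotypes, 3 of them higher (Tnf, Tnfrsf1a and Tnfrsf1b) and 3 lower (Rel, Nfkbia and Tnfaip3) in LSD1cKO, against 68.9% of all genes (34.1% higher and 34.8% lower). Log2 fold changes were 0.45 (standard error 0.77) for Tnf, 0.29 (0.41) for Tnfrsf1a, 0.43 (0.65) for Tnfrsf1b, -0.19 (0.80) for Nfkbia and -0.34 (0.94) for Tnfaip3. The edgeR adjusted p was 1 for each of these 5 genes. These standard errors draw on the spread of all 12 libraries. In a fit of the 4 mandible libraries alone all 5 genes were called in these directions, as were 5434 of the 14403 genes of that fit, whose spread rests on 2 pairs that differed little. The summed level of the 15 osteoclast genes also differed between the genotypes here, with 28882 and 28760 CPM in LSD1WT and 16622 and 16671 CPM in LSD1cKO, and its part in these differences was not tested.

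In the ligated femur 3 of the 10 genes did not overlap, Relb higher and Nfkb1 and Rela lower in LSD1cKO, against 34.2% of all genes (14.8% higher and 19.4% lower). The log2 fold change of Relb was 0.48 (standard error 0.61), with an edgeR adjusted p of 0.901. That of Tnfrsf1b was -0.04 (standard error 0.65) with an edgeR adjusted p of 0.995. Without the femur LSD1WT replicate 2 pair it was 1.58 (standard error 0.27) with an edgeR adjusted p of 0.0135, beside 9.35% of all genes called, and it was the 1 member called. That value rests on a single LSD1WT library, whose spread was taken from the other conditions. In the unligated femur 0 of the 10 genes separated the genotypes, against 18.4% of all genes (9.82% higher and 8.57% lower). There the log2 fold change of Tnfrsf1b was 0.35 (standard error 0.65), and without the pair 1.17 (standard error 0.26) with an edgeR adjusted p of 0.0672. Interaction terms tested whether the effect of genotype depended on the site or on the ligature, and 0 of 10 genes were called by either, as were 0% of all genes. Each of the 10 genes had an edgeR adjusted p of 1 in both tests.

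The site of the marrow was compared within each genotype of ligated mice. In LSD1WT, 0 of 10 genes had an adjusted p under 0.05, as had 0% of all genes, while 3 passed an unadjusted p of 0.05, against 19.8% of all genes (edgeR). All 3 were lower in the mandible without overlap, Tnfrsf1b with a log2 fold change of -1.94 (standard error 0.68, edgeR adjusted p of 0.201), Tnfrsf1a with -1.01 (0.41, 0.229) and Rela with -0.59 (0.23, 0.219), whereas 60.7% of all genes did not overlap (29.2% higher and 31.5% lower). Without the femur LSD1WT replicate 2 pair the values were -0.38 for Tnfrsf1b, -0.38 for Tnfrsf1a and -0.44 for Rela, with edgeR adjusted p values of 0.531, 0.463 and 0.420.

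In LSD1cKO, where mandible and femur came from the same 2 mice, 8 of the 10 genes did not overlap, 2 of them higher (Tnf and Nfkb1) and 6 lower in the mandible, against 70.3% of all genes (35.3% higher and 35.0% lower). The edgeR adjusted p of the 10 genes ran from 0.349 to 0.978, so that 0 of 10 were called, as were 0% of all genes. Tnfrsf1b was at 85.3 ± 10.7 CPM in the mandible and 237 ± 27.5 CPM in the femur (SD, n = 2), 2.78-fold lower in the mandible, with a log2 fold change of -1.47 (standard error 0.67, edgeR adjusted p of 0.349). Relb was at 49.8 ± 3.25 CPM and 85.8 ± 1.60 CPM (SD, n = 2), with -0.78 (0.61, 0.623). Tnf was higher in the mandible, at 11.7 ± 1.70 CPM against 6.90 ± 0.965 CPM (SD, n = 2), with 0.77 (0.77, 0.729), and Tnfrsf1a had -0.43 (0.41, 0.707).

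With the mouse as a block, which compares the sites within each mouse, these 4 genes were called in LSD1cKO, beside 36.8% of all genes. The log2 fold change of Tnfrsf1b was -1.47 with an edgeR adjusted p of 1.07e-07, that of Relb -0.79 with 1.84e-04, that of Tnf 0.77 with 0.00216 and that of Tnfrsf1a -0.44 with 0.0386. This block leaves 1 residual degree of freedom, so its spread rests on the 2 LSD1cKO mice. Without the femur LSD1WT replicate 2 pair and without the block, Tnfrsf1b alone was called, with -1.49 (standard error 0.21, edgeR adjusted p of 0.00265), beside 21.7% of all genes. The summed osteoclast genes were at 16622 and 16671 CPM in the mandible and at 22697 and 19953 CPM in the ligated femur of these mice, and the summed macrophage genes at 2981 and 3733 CPM and at 10176 and 10595 CPM. Of the 15 osteoclast genes, 6 were higher and 9 lower in the mandible, with a median log2 fold change of -0.14. The part of these differences in the site comparison was not tested.

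Ligatures around upper molars are distant from the femur. Ligated femur cultures were compared with unligated ones to see whether the ligatures reached these genes. In LSD1WT and in LSD1cKO, 0 of the 10 genes passed an adjusted and 0 an unadjusted p of 0.05 in edgeR, and 0 separated ligated from unligated libraries. Of all genes, 0% were called in each genotype, 0.765% and 0.959% had an unadjusted p under 0.05, and 9.18% and 30.0% did not overlap (5.25% and 14.0% higher, 3.93% and 16.0% lower in ligated mice). The edgeR adjusted p was 1 for all 10 genes in both genotypes. In LSD1cKO the unligated libraries differed from each other, with Tnf at 4.85 and 15.9 CPM beside summed osteoclast genes at 32126 and 13621 CPM.

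Replicate 2 of femur LSD1WT differed from replicate 1 in the same way in ligated and unligated mice. Tnfaip3 in replicate 2 was at 16.4% of replicate 1 in the ligated and 11.3% in the unligated femur. Nfkbia was at 25.5% and 14.9%, Nfkb2 at 29.4% and 21.9%, and Relb at 51.4% and 22.4%. These 4 genes were lower in the pair than in each of the other 10 libraries. Tnf, by contrast, was 3.73-fold and 3.45-fold higher in replicate 2, Tnfrsf1a 2.04-fold and 2.07-fold, and Tnfrsf1b 4.80-fold and 2.52-fold. Tnf, Tnfrsf1a and Rela (1.17-fold and 1.22-fold) were above each of the other 10 libraries. For Tnfrsf1b the ligated library (404 CPM) was above them and for Rel the unligated library (68.5 CPM) below them, with the other library of the pair inside their range, and for Nfkb1 both lay inside it. Of the 4 genes with kappaB letters in the windows shown above, Nfkbia, Tnfaip3 and Nfkb2 are among the low ones. Rel was at 67.5% and 69.8% of replicate 1. Relb, also low, and Nfkb1 had no promoter entry. Whether the letters have a part in these levels was not tested. These values describe 2 libraries, in which macrophage genes were high and osteoclast genes low, and their part in the levels of the regulators was not tested.

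**Figure D3:**
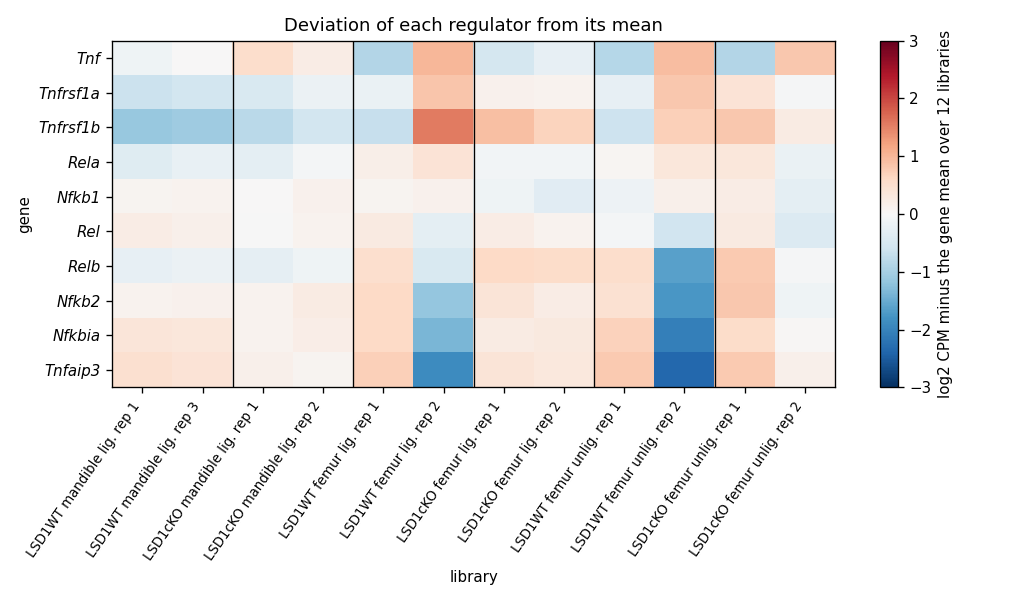
Log2 CPM of each regulator minus its mean over the 12 libraries (color scale from -3 to 3), with libraries in columns grouped by condition. The columns of femur LSD1WT replicate 2 are blue for Relb, Nfkb2, Nfkbia and Tnfaip3 and red for Tnf and both receptors. The mandible columns are blue for both receptors, and femur LSD1WT replicate 1 also lies below the mean for both.

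Among the other libraries too, Nfkbia and Tnfaip3 were highest where osteoclast genes were high. Over the 10 libraries without the pair, log2 CPM of Nfkbia had a Pearson r of 0.96 and a Spearman rho of 0.98 with the log2 sum of the 15 osteoclast genes, and Tnfaip3 had 0.93 and 0.92. Without the 2 libraries farthest from the median sum as well (n = 8), r was 0.93 for Nfkbia and 0.94 for Tnfaip3. Tnf ran the other way, with r of -0.87, rho of -0.87 and, with n = 8, r of -0.78. The other 7 genes had r from -0.24 (Tnfrsf1b) to 0.70 (Nfkb2). Among the regulators themselves, r over these 10 libraries was 0.95 between Nfkbia and Tnfaip3, 0.93 between the receptor genes and -0.91 between Tnf and Nfkbia. Mmp9, Acp5 and Ctsk weigh most in the osteoclast sum, with median levels of 8241, 4645 and 3887 CPM over the 12 libraries. The share of all genes with such an r was not counted. These correlations are descriptions without a test, since the libraries share mice, genotypes and cultures.

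**Figure D4:**
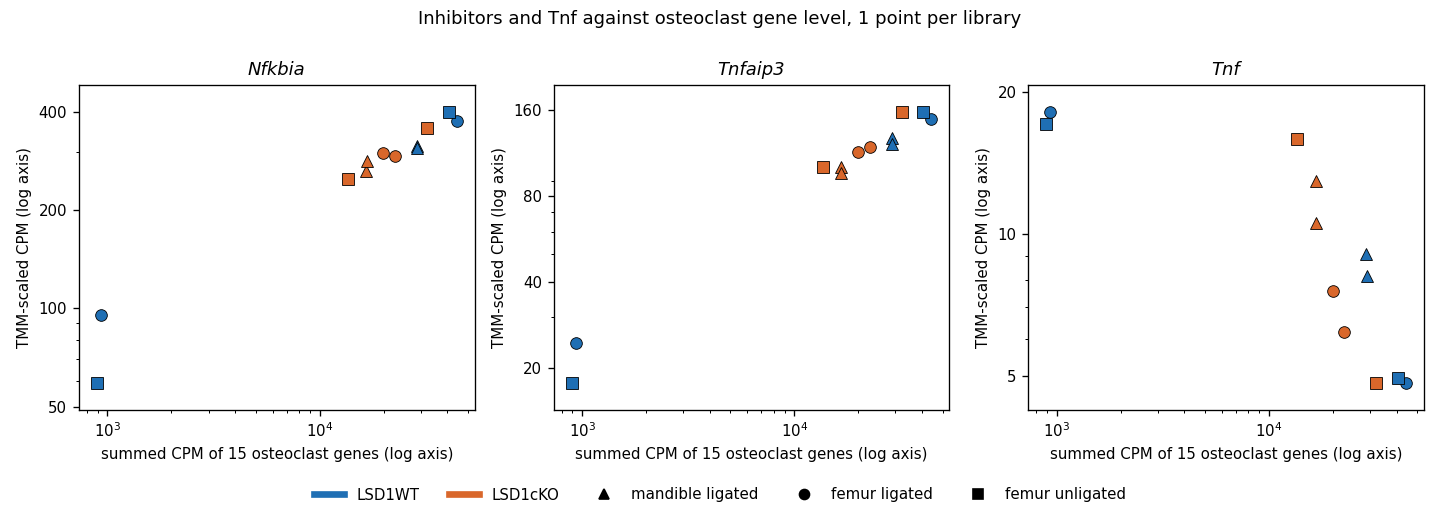
TMM-scaled CPM of Nfkbia, Tnfaip3 and Tnf (log axes) against the summed CPM of 15 osteoclast genes (log axis), 1 point per library, with color for genotype and shape for culture. Nfkbia and Tnfaip3 rise from left to right and Tnf declines, both across all 12 points and among the 10 points from 13621 to 44208 CPM.

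Of all tested genes, those with a pattern over the 12 libraries most like that of a regulator, by Pearson r of log2 CPM, were Tmem204 for Nfkbia (r of 1.00), Epn2 for Tnfaip3 (1.00) and Egfr for Nfkb2 (0.99). For the receptors they were Man2b1 for Tnfrsf1a (0.99) and Slc7a7 for Tnfrsf1b (0.98). For Tnf it was Prdx4 (0.97), for Relb Stxbp3 (0.98), for Rela Was (0.97), for Nfkb1 Cdk12 (0.95) and for Rel Ccser2 (0.94). Over the 10 libraries without the pair the nearest gene was a different one for each of the 10 regulators.

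Other genes of the pathway were examined with 5 lists over the 3 cultures, where 3.00% of all genes were called higher and 0.532% lower in LSD1cKO. Among 23 genes that act next to the receptors, such as adaptors and ubiquitin ligases, 0 were called, and the median log2 fold change was 0.04. The lowest unadjusted p values of this list were those of the kinase gene Ripk3, with 0.69 (standard error 0.21, edgeR adjusted p of 0.125), and the adaptor gene Traf2, with 0.51 (0.17, 0.144). Among 6 genes for kinases that act on IkappaB or p100, 0 were called and the median was 0.05. Tbk1 had -0.30 (0.09, 0.128) and Ikbkg, the scaffold of the IkappaB kinase, -0.29 (0.21, 0.580) in edgeR.

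Among 12 other IkappaB and feedback genes, 2 rose in LSD1cKO and 0 fell, with a median of 0.33. Nlrc5, a regulator of MHC class I genes, rose by 1.50 on the log2 scale (standard error 0.25, edgeR adjusted p of 0.00866) and Tnip3, an A20-binding protein gene, by 1.22 (0.24, 0.0226). Nlrc5 was at 7.59 and 7.6 CPM in mandible LSD1WT against 15.7 and 24.4 CPM in LSD1cKO, and at 14.6 and 43.7 CPM against 92.9 and 93.2 CPM in the ligated femur. Of 15 other ligands and receptors of the TNF superfamily, 14 were tested, 1 rose and 0 fell, with a median of 0.68. This was Tnfsf15, a cytokine gene at 0.515 ± 0.403 CPM in LSD1WT and 2.61 ± 1.58 CPM in LSD1cKO (SD, n = 6), with a log2 fold change of 2.20 (standard error 0.52, edgeR adjusted p of 0.0448).

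Of 25 known NF-kappaB target genes 20 were tested, 5 rose and 0 fell in LSD1cKO, with 9 fold changes above 0, 11 below and a median of -0.15. Ptgs2, the inducible cyclooxygenase gene, had a log2 fold change of 1.61 (standard error 0.21, edgeR adjusted p of 0.00367). Acod1, which makes itaconate, had 2.30 (0.34, 0.00586) and the chemokine gene Ccl5 2.37 (0.44, 0.0169). The adhesion gene Icam1 had 1.09 (0.24, 0.0336) and the costimulatory gene Cd80 0.91 (0.20, 0.0346). Acod1 was at 2.18 ± 1.08 CPM in LSD1WT and 11.1 ± 5.04 CPM in LSD1cKO (SD, n = 6) and separated the genotypes, and Icam1 was at 94.5 ± 40.5 and 200.1 ± 49.8 CPM. Ptgs2 (0.809 ± 0.402 and 2.38 ± 1.06 CPM) and Ccl5 (1.03 ± 0.762 and 5.30 ± 3.12 CPM) were low and overlapped between the genotypes. Ptgs2 had as few as 6 counts and Ccl5 as few as 4 in an LSD1WT library. Acod1 is also among the genes that the study measured in related samples, so its count here is not independent evidence. In the single cultures 0 genes of the 5 lists were called. Since 3 mice gave libraries of both sites, the fit was repeated with a random block for each mouse (limma voom, estimated correlation). Tnip3 (limma adjusted p of 0.0775), Icam1 (0.051) and Cd80 (0.0558) then lost their calls, which left 1 of the feedback genes (Nlrc5) and 3 of the target genes (Acod1, Ptgs2 and Ccl5). Of the superfamily genes, Tnfsf15 (limma adjusted p of 0.0459) was still called, together with Tnfsf10. The 8 genes that rose had a log2 fold change above 0 in each of 23 alternative settings. Acod1, Nlrc5 and Ptgs2 were called in all 23, Ccl5 in 22, Tnip3 in 17, Cd80 in 13, Icam1 in 13 and Tnfsf15 in 12. Without ligated femur LSD1cKO replicate 2 the calls of Ccl5 (edgeR adjusted p of 0.0514), Tnip3 (0.0516), Icam1 (0.0692), Cd80 (0.071) and Tnfsf15 (0.112) were lost, and without either mandible LSD1WT library those of the last 4.

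Without the femur LSD1WT replicate 2 pair more genes of these lists were called, beside the 14.4% and 9.75% of all genes. These were 7 higher and 1 lower of 23 receptor-proximal genes, 3 higher and 1 lower of 6 kinase genes, 4 higher of 12 feedback genes, 8 higher of 14 superfamily genes, and 11 higher and 1 lower of 21 target genes. The median of the target genes was then 0.89, opposite in sign to the fit of 12 libraries, and that of all genes 0.02. All 8 genes named above as risen were called higher in this fit too, with log2 fold changes from 0.89 (Icam1) to 2.32 (Acod1).

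**Figure D5:**
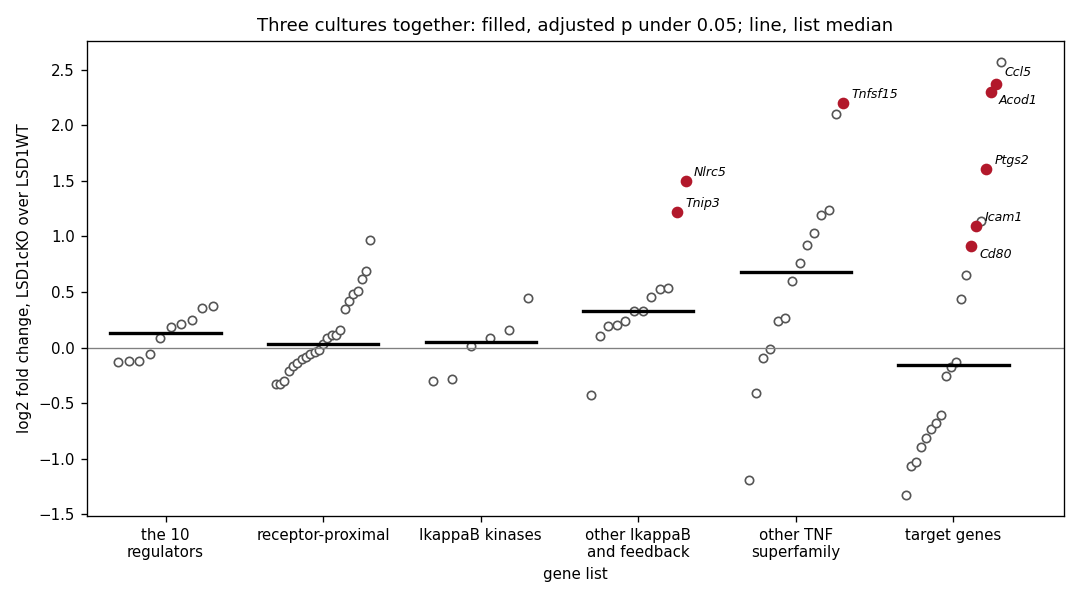
Log2 fold change of LSD1cKO over LSD1WT over the 3 cultures (12 libraries) for the 10 regulators and the 5 pathway lists, 1 point per gene in rising order within each list. Filled points have an adjusted p under 0.05 (edgeR) and are named, lines are list medians, and the 8 filled points lie in the feedback, superfamily and target lists, all above 0.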

How the data were processed

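PolyA RNA of preosteoclast cultures was sequenced, and the authors deposited whole-number read counts per gene in 1 table of 57010 genes and 12 libraries, with 0 columns left unmapped. According to the submitters' processing notes, FastQC, HISAT2 2.1.0, featureCounts and edgeR were used with build GRCm39. The strand setting of the counting is not given in the sources used here. Groups were taken from the labels.

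Counts were tested with the quasi-likelihood test of edgeR 4.0.16 (limma 3.58.1, R 4.3.3) at its default settings. This followed filterByExpr and TMM scaling, with Benjamini-Hochberg adjustment over 15425 genes. Log2 CPM values used a prior count of 2. All 12 libraries shared 1 estimate of the spread, with 1 coefficient per condition, or culture plus genotype over the 3 cultures. Total counts per library were 21375805 to 32526751, and the common biological coefficient of variation was 0.419. DESeq2 1.42.0, limma, other scalings and filters, blocks and left-out libraries were alternatives. Scripts were tested on simulated data.

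Levels per kilobase used the merged exon length of all annotated transcripts of a gene, from GENCODE vM21. The members and gene lists were chosen with earlier results of these data known. Named were all 10 members and, from each list, called genes (at most 5 by adjusted p) or else the 2 with the lowest unadjusted p. By the mouse numbers in the titles, mandible and ligated femur LSD1cKO libraries pair within 2 mice, although the correlation of their deviations from the condition means was only 0.03. Mandible and ligated femur LSD1WT replicate 1 also share a mouse, and the other shared replicate numbers name different mice. The mandible LSD1WT replicate 3 library was grouped by its title.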

Additional observations from a re-analysis of the deposited data

Results flagged for a closer look

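Within the 6 libraries of each genotype, 46 sets of values were tested for a library far from the others with Dixon's criterion, and 3 passed. The rate of about 1 in 20 by chance holds for values of 1 population, whereas each set here pools 3 cultures. Libraries that are extreme together hide each other, and the femur LSD1WT replicate 2 pair was not flagged. For its unligated library, the lowest, the gap was 0.048 of the range for Tnfaip3 and 0.107 for Nfkbia. Nfkb1 was at 144 CPM in LSD1WT unligated femur replicate 1, below the nearest library at 170.2 CPM, and this gap was 0.728 of the range. Rela was at 92.5 CPM in LSD1cKO unligated femur replicate 1, above the nearest at 70.2 CPM, with a gap of 0.689 of the range. Ikbkg was at 82.8 CPM in LSD1cKO unligated femur replicate 2, below the nearest at 115 CPM, with a gap of 0.742 of the range.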

How the results depend on the processing

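Under the alternatives, the 37 printed fold changes kept their sign and side of the threshold in 745 repeats, turned sign in 51, and moved past it in 36 or back from it in 38. The number of regulators called moved from 0 in few settings. Calls over all genes are given below for some of these settings, and they rose there as well. For the others no share of all genes is given, so their counts say nothing particular to the regulators. With limma voom and sample quality weights it was 1 in the mandible, 3 over the 3 cultures and 5 for mandible against femur in LSD1cKO. With the compared libraries alone it was 5 in the mandible, beside 5434 of all genes, and 4 for mandible against femur in LSD1cKO. Without both femur LSD1WT replicate 2 libraries it was 1 in the ligated femur, 2 over the 3 cultures and 1 for mandible against femur in LSD1cKO. For mandible against femur in LSD1WT it was 1 with DESeq2, 1 without a filter beyond 1 count and 0 to 2 when each library was left out, with 2 without ligated femur LSD1WT replicate 1. Over all genes, calls over the 3 cultures went from 544 to 1248 with DESeq2, 6285 with quality weights, 3867 without the pair, and 298 to 653 with each library left out, the lowest without ligated femur LSD1cKO replicate 2. In the mandible they went from 0 to 5434 with its libraries alone, in the ligated femur from 1 to 1497 and in the unligated femur from 0 to 396 without the pair. For mandible against femur they reached 3759 in LSD1WT without ligated femur replicate 1 and 6370 in LSD1cKO with quality weights, and for the ligature 31 and 1. The cause of these shifts was not tested.

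Over the 3 cultures, log2 fold changes turned sign with quality weights to 0.51 for Tnf, 0.24 for Tnfrsf1a, -0.14 for Rel, 0.025 for Rela, -0.0074 for Relb, -0.21 for Nfkbia and -0.29 for Tnfaip3. Without the pair they turned to 0.67 for Tnf, 0.38 for Tnfrsf1a, -0.025 for Nfkb2, -0.044 for Rel, 0.024 for Rela, -0.25 for Nfkbia and -0.29 for Tnfaip3. With mandible LSD1WT replicate 3 taken as femur, Tnfrsf1a was at 0.059. With each library left out, Tnf ran from -0.32 to 0.26, Tnfrsf1a from -0.094 to 0.16, Nfkbia from -0.0069 to 0.59 and Tnfaip3 from -0.0099 to 0.64. The Tnfrsf1b value in the ligated femur, near 0, turned to 0.0073 with DESeq2, 0.31 with quality weights, 0.0074 with RLE and 0.029 with upper-quartile scaling, 0.00096 without a filter, 0.028 with a mean of at least 10 counts, 0.44 with replicate 3 as femur, 0.044 with the mandible LSD1WT libraries summed and 1.58 without the pair, and ran from -0.68 to 1.49 with each library left out. In the unligated femur Tnfrsf1b ran from -0.098 to 1.17 with each library left out. The cause was not tested.

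With the replicate number as a block, which joins libraries of the same mouse in 3 cases and otherwise of different mice, Nfkbia turned to 0.39 and Tnfaip3 to 0.38 in the mandible, Tnfrsf1b turned to 0.19 in the ligated femur, 403 genes were called over the 3 cultures, and 0 regulators were called in any comparison. The correlation of deviations by number was 0.78 between ligated and unligated femur LSD1WT, which are different mice, and -0.20 to 0.28 between the other conditions. With the mouse as a random block in limma voom, Tnfrsf1b in the ligated femur was 0.37, and 3 of the 8 genes of the pathway lists that rose over the 3 cultures (Tnip3, Icam1 and Cd80) lost their calls. With the mouse as a fixed block, 4 regulators were called for mandible against femur in LSD1cKO, beside 36.8% of all genes, and 502 genes for genotype by site. With 2 libraries per condition, small differences were not detectable, and counting error adds to this for Tnf, with up to 434 counts per library.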
